A study of Mus musculus with 10 samples.

Results

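Acetylation of lysine 27 of histone H3 (H3K27ac) was compared, as 2 lists of peaks, between mouse neural stem and progenitor cells that received water and cells that received crotonate. The control list held 51780 peaks on chromosomes 1 to 19 and the crotonate list 58865, which makes 110645 of the 267163 peaks that the 8 lists of the study held on these chromosomes. All of them were used. The other lists were for H3K9cr (crotonylation of lysine 9), H3K4me3 and H3K27me3. The cells came from the forebrain of embryos at stage E13.5, were at passage 2 to 3, and grew in serum-free medium with epidermal and fibroblast growth factor at 20 ng/ml each. The control group was given water and the other group 10 mM crotonate, both for 24 h. No strain, sex, transgene or deletion is named in the labels. Chromatin was precipitated without crosslinking (native chromatin immunoprecipitation), with 1 library per mark and treatment, so no difference given here has a replicate check and none was tested. The antibody catalogue number was ab4729 in both H3K27ac libraries, while its vendor, Abcam, is given for the control library only.

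H3K27ac is laid down by the acetyltransferases p300 and CBP and removed by histone deacetylases. It marks active promoters and active distal enhancers, and it sets enhancers in use apart from poised ones, which lack it. The same lysine can be methylated by Polycomb repressive complex 2, so that 1 histone tail cannot carry acetylation and H3K27me3 on it together. In neural progenitors very broad H3K27ac domains lie over genes of cell identity such as the transcription factor gene Sox2. Crotonate is a short-chain fatty acid that cells turn into crotonyl-CoA, and p300 can use crotonyl-CoA as well as acetyl-CoA.

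The labelled cell type was checked against its markers. Of 14 forebrain neural stem and progenitor markers, 13 had a promoter H3K27ac peak in each library. Promoter means, here and below, that a peak touched a window of 1 kb either side of a protein-coding gene's start, or of either annotated end for the 4208 of 20665 genes without a listed start, and all other peaks are called distal. Of 6 microglia and blood markers 1 had such a peak in each library, of 5 endothelial markers 1 in control and 2 after crotonate, and of 6 mesenchymal markers 2 in each. None of the 4 markers of caudal neural tube and none of the 39 Hox genes measured had one in either library. Of 6 neuronal markers 3 had one in control and 2 after crotonate, of 5 astrocyte markers 4 and 3, and of 7 oligodendrocyte lineage markers 5 and 6. Progenitor markers were thus nearly complete in both libraries, and markers of blood, vessel and mesenchyme mostly lacked a promoter peak.

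The sequences of 6 promoters are shown first, because H3K27ac appeared at 3 of them after crotonate, disappeared from 2, and stayed over the whole of 1. Each runs 5′ to 3′ from 250 bases before the start to 50 from the start on, in the RefSeq annotation of GRCm38.p6, and capitals mark CpG dinucleotides. The first 3 gained a peak: Cfap77 (chr2:29055017-29055316, minus strand), a gene of ciliary axonemes, Spag6l (chr16:16829314-16829613, minus strand), a gene of the central apparatus of flagella, and Icam1 (chr9:21015690-21015989, plus strand), which encodes an adhesion receptor for leukocytes. Adamts20 (chr15:94404301-94404600, minus strand), a secreted metalloprotease gene, and Mthfs (chr9:89210940-89211239, plus strand), a gene of folate metabolism, lost one. Hes5 (chr4:154960673-154960972, plus strand), a Notch target that keeps progenitors undifferentiated, kept a broad peak.
Cfap77: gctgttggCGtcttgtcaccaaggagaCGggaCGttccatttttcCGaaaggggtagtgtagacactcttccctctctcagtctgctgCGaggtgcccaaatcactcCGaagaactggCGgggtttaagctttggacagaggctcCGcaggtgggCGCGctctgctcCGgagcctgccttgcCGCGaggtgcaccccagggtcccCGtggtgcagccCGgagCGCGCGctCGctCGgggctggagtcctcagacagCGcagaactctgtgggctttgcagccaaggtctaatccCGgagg
Spag6l: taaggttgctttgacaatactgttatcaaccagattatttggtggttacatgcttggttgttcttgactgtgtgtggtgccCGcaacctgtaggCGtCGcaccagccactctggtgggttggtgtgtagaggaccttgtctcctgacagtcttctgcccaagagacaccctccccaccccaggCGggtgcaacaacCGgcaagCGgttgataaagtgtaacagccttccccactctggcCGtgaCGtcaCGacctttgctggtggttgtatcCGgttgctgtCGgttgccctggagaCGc
Icam1: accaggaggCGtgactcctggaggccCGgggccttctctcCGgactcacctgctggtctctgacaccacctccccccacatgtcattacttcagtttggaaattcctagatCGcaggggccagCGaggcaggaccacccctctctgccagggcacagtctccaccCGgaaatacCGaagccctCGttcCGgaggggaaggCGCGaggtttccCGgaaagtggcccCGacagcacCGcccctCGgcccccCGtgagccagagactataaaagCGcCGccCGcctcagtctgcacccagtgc
Adamts20: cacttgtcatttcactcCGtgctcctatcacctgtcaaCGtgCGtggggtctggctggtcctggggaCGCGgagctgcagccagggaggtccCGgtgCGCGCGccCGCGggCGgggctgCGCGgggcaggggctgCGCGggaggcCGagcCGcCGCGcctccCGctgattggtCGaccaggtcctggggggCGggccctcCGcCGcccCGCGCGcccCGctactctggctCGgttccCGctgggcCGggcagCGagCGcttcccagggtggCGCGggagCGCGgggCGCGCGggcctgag
Mthfs: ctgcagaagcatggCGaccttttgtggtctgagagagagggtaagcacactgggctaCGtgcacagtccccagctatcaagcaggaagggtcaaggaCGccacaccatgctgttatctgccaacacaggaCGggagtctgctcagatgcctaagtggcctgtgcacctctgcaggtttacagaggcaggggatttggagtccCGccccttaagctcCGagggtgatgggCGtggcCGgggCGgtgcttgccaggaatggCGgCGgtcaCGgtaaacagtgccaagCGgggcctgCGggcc
Hes5: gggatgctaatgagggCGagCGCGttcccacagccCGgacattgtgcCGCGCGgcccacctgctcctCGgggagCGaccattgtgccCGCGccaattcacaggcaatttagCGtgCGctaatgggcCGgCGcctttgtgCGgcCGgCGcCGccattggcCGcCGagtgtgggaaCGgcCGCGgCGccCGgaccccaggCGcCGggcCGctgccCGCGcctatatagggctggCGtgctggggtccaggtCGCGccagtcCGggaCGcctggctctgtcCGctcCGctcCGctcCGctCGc

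They held 22 CpG dinucleotides (Cfap77), 12 (Spag6l), 19 (Icam1), 41 (Adamts20), 14 (Mthfs) and 41 (Hes5). The sequence of another listed Mthfs start (chr9:89211134-89211433), not printed here, held 35 and lay outside the control peak. The median over all 20085 promoter sequences of protein-coding genes on chromosomes 1 to 19 was 14. Of the 300 bases, the crotonate peak covered 293 at Cfap77, 292 at Spag6l and 74 at Icam1, while the control peak covered 73 at Adamts20 and 110 at Mthfs. Both libraries covered all 300 at Hes5.

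Promoters were compared by their H3K27ac state. The 11582 starts with a peak in both libraries had a median of 22 CpG dinucleotides (quartiles 14 to 30), the 349 that lost it 13 (5 to 24), the 385 that gained it 9 (4 to 18), and the 7769 with no peak in either 3 (1 to 7). Both kinds of change were thus seen at promoters of intermediate CpG number. Short motifs were searched on both strands as a description of these windows, 8 in all. GGGCGG, the core of the Sp1 site, was in 47.0% of all promoters, in 66.8% of those with a peak in both libraries, in 47.3% of those that lost it, in 47.0% of those that gained it and in 17.5% of those with no peak in either. CCGGAAG, a core of Ets family sites, was in 11.9% of all, 18.5% of those with a peak in both, 2.87% of those that lost it, 4.42% of those that gained it and 2.72% of those with no peak. Promoters that changed in either direction thus held CCGGAAG less often than those with a peak in both libraries, at shares nearer to that of promoters with no peak. TGACGTCA, the cyclic AMP response element, was in 2.30% of all, 3.47%, 1.15%, 1.04% and 0.669% in the same order, and the Spag6l promoter printed above holds it. TGANTCA, the AP-1 site, was in 7.06% of all promoters and in 4.22%, 8.02%, 10.4% and 11.1% in that order, and CAGCTG, an E-box, in 15.6% and in 14.8%, 20.3%, 22.9% and 16.3%. The AP-1 letters were thus about as frequent at gained promoters as at promoters with no peak. CCAAT was in 38.1% of all and in 38.1%, 37.2%, 27.01% and 38.7%, TATAAA in 12.7% and in 6.21%, 8.31%, 9.09% and 22.8%, and GCGCATGC, the Nrf1 site, in 3.55% and in 5.58%, 2.29%, 0.779% and 0.721%. CpG number differs between these groups of promoters and was not matched.

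The first comparison asked how wide the same peaks were in the 2 libraries. A peak was shared when it overlapped a peak of the other list by at least 1 bp, and 33154 peaks overlapped exactly 1 peak that overlapped only them (one-to-one pairs, 64.03% of the control and 56.3% of the crotonate list). Their median width was 1233 bp in control and 980 bp after crotonate. The median crotonate width was 0.866 times the control width (95% interval 0.863 to 0.869, quartiles 0.692 to 1.02). The crotonate peak was the narrower in 24054 pairs (72.6%), and in 10.1% it had under 0.5 times the control width. The intervals cover counting error only and treat neighbouring peaks as independent. On all 19 chromosomes the median was below 1, from 0.836 on chromosome 13 to 0.883 on chromosome 15. Both edges lay inside the control peak in 47.9% of pairs, 1 edge in 40.5% and neither in 11.7%. The summit moved by a median of 89 bp, and in 71.3% of pairs by at most 200 bp.

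Narrowing was set beside the strength of the peaks. The summit's fold enrichment, the authors' ratio of fragment pileup to local background, was lower after crotonate (median 0.872 times), as was the pileup itself (0.768 times). The lowest background implied by any peak, a stand-in for depth, was 0.861 times that of control. Among the 7109 pairs whose fold enrichment was within 10% of each other, the median width was 0.892 times the control width (0.886 to 0.898) and 69.9% were narrower. Among the 11179 pairs with the higher enrichment after crotonate it was 0.958 times (0.952 to 0.965), with 55.8% narrower. Among the 5941 pairs with pileups within 10% it was 0.933 times (0.925 to 0.941). The narrowing was thus smaller in pairs of like height and did not disappear from them. The part of depth and enrichment in the remaining difference was not tested.

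The other marks of the same cultures were matched in the same way. The median width after crotonate was 0.979 times the control width for H3K9cr, 1.03 times for H3K4me3 and 1.01 times for H3K27me3. H3K9cr had the same fall of the stand-in for depth (0.857 times) and a larger fall of fold enrichment (0.669 times) than H3K27ac, and 56.7% of its pairs were narrower. With enrichment within 10%, the median was 1.01 for H3K9cr, 1.03 for H3K4me3 and 1.04 for H3K27me3, against 0.892 for H3K27ac. No test between marks was possible with 1 library each.

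**Figure D1:**
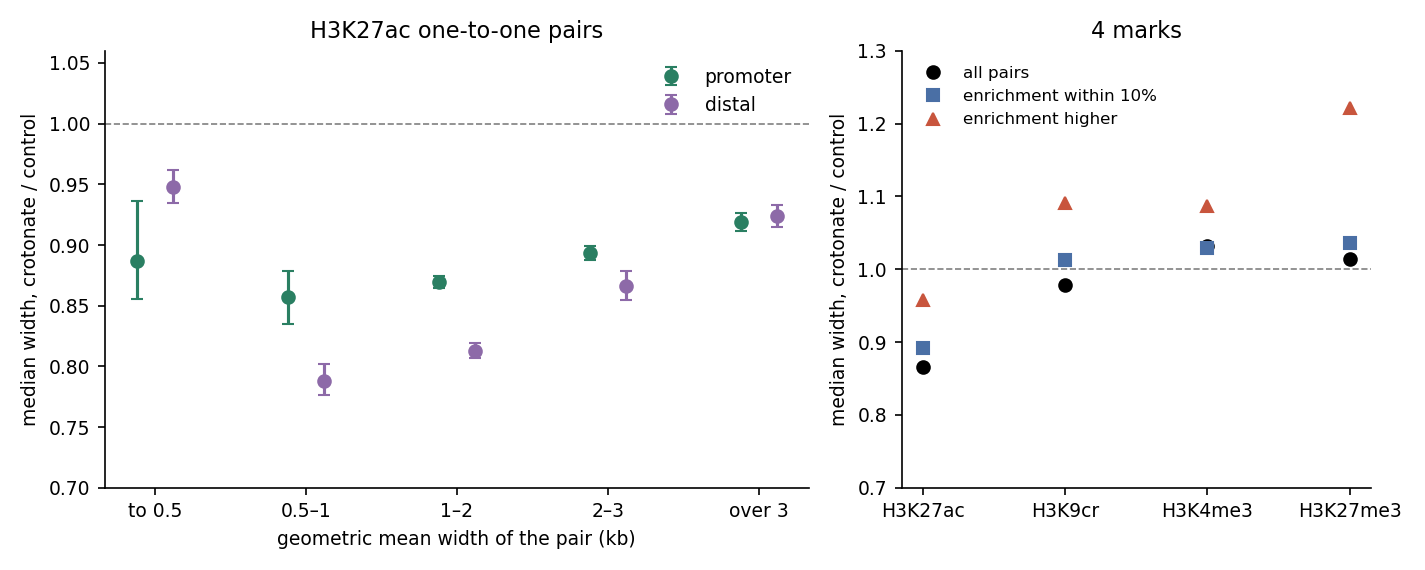
Left, the median crotonate width over control width of one-to-one H3K27ac pairs (y axis) at promoters and at distal sites, by the geometric mean width of the pair in kb (x axis), with bars for the 95% interval over pairs. Every point lies below 1, the lowest at 0.788 for distal pairs of 0.5 to 1 kb. Right, the same ratio for 4 marks over all pairs, over pairs with fold enrichment within 10%, and over pairs with higher enrichment after crotonate. H3K27ac is the only mark with all 3 points below 1.

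Widths were then taken apart by kind of site. The 10604 promoter pairs had a median of 0.882 (0.879 to 0.886), with 80.8% narrower and 2.83% at under 0.5 times the control width. The 22550 distal pairs had a median of 0.848 (0.843 to 0.853), with 68.7% narrower and 13.53% at under 0.5. Distal pairs were thus more spread, with more that narrowed strongly and more that widened. Pairs of like size were compared by the geometric mean of both widths, which favours neither library. From 0.5 to 1 kb the median was 0.857 at promoters (0.835 to 0.878) and 0.788 at distal sites (0.776 to 0.802), from 1 to 2 kb 0.870 (0.865 to 0.874) and 0.813 (0.807 to 0.819), and from 2 to 3 kb 0.893 (0.888 to 0.899) and 0.867 (0.855 to 0.878). Over 3 kb the values were 0.919 (0.912 to 0.926) and 0.924 (0.915 to 0.933). Up to 0.5 kb the order was the other one, with 0.887 (0.856 to 0.936) at promoters and 0.948 (0.935 to 0.961) at distal sites. With fold enrichment within 10% the 2 classes did not differ beyond their intervals, at 0.894 (0.888 to 0.901) and 0.889 (0.880 to 0.899). With pileups within 10% the order turned, to 0.916 (0.908 to 0.924) at promoters and 0.948 (0.937 to 0.957) at distal sites, and so it did among pairs with higher enrichment after crotonate, at 0.917 (0.910 to 0.922) and 0.986 (0.978 to 0.997). Which kind of site narrowed more thus depends on how pairs are matched for strength.

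The bases that left the list at the edges were then placed. Of the control bases without a crotonate peak, 62.1% lay at edges of shared peaks, 30.2% in lost peaks and 7.67% in gaps inside split peaks. Of the crotonate bases without a control peak, 63.02% lay in gained peaks. At promoter pairs the trimmed bases covered 3.04 Mb. H3K9cr peaks lay over 69.5% of them in control and 64.98% after crotonate, and H3K4me3 peaks over 45.5% and 47.0%. At distal pairs the trimmed bases covered 7.39 Mb, with H3K9cr over 17.2% in control and 9.52% after crotonate. Over the distal bases that both H3K27ac lists covered, H3K9cr lay over 52.9% and 43.02%. Over the promoter bases that both H3K27ac lists covered, H3K9cr lay over 95.8% and 95.1%. The trimmed promoter bases thus stayed mostly under H3K9cr peaks, at a lower share than the promoter bases kept.

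At promoters the direction of transcription gave the edges a side. In 6779 one-to-one pairs that covered starts of a single strand in either list, the peak reached a median of 680 bp upstream of the start in control and 585 bp after crotonate, and 1086 bp and 953 bp downstream. The upstream edge moved in by a median of 84 bp and the downstream edge by 113 bp, and the downstream edge moved in by more in 54.5% of pairs. The start itself was covered in 97.9% of these pairs in control and 93.5% after crotonate. The summit lay downstream of the start in 74.3% and 73.1%, at a median of 176 and 163 bp. Promoter peaks thus narrowed from both sides about a summit on the side of the transcribed region.

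**Figure D2:**
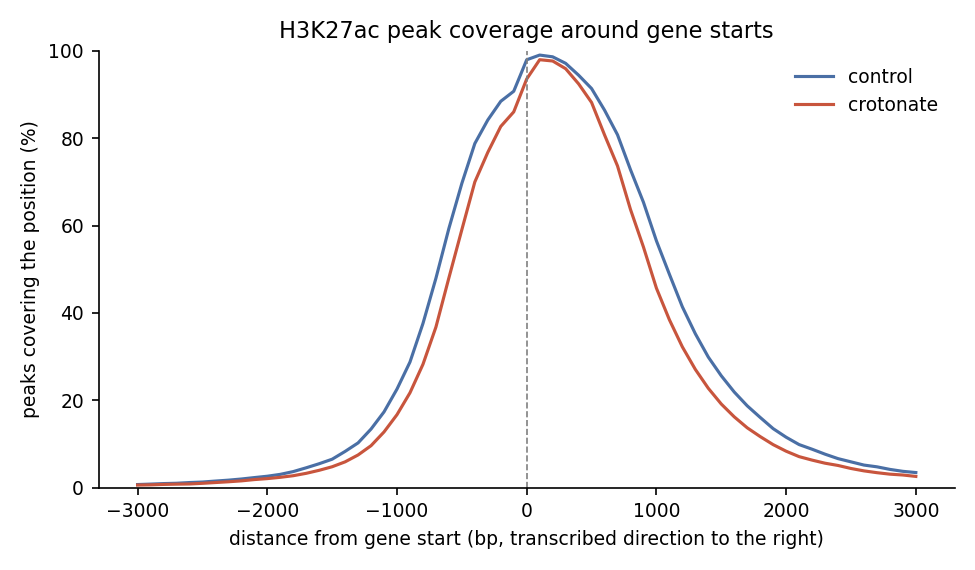
Share of 6779 one-to-one promoter H3K27ac pairs whose peak covered each position (y axis, percent) by distance from the gene start in bp (x axis, transcribed direction to the right), for control and crotonate. The crotonate line lies inside the control line on both sides: at 500 bp upstream 59.1% of crotonate and 69.7% of control peaks covered the position, and at 1000 bp downstream 45.7% and 56.5%.

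The peaks over 3 kb in control that narrowed most show how this looked at single sites. Near Zmiz1, which encodes a transcriptional coregulator, a distal peak of 3218 bp (chr14:25472146-25475363) was 262 bp wide after crotonate, with fold enrichment 4.08 in control and 3.97 after crotonate. At the promoter of Cep170, a gene of a centrosomal protein, a peak of 4966 bp (chr1:176805682-176810647) narrowed to 1404 bp while its fold enrichment was 4.60 in control and 7.61 after crotonate. At Enc1, an actin-binding gene of early neural development, a promoter peak of 3448 bp (chr13:97250172-97253619) became 863 bp, with enrichment 7.99 and 4.61. A distal peak 18594 bp from the start of Meis2, a homeobox gene, went from 3128 to 1127 bp (chr2:116044664-116047791), with enrichment 9.58 and 6.56. Near Ncam1, the neural cell adhesion gene, 3320 bp became 924 bp (chr9:49743373-49746692) with enrichment 14.1 and 2.82, and near Megf10, a gene of an engulfment receptor, 3088 bp became 877 bp with 14.1 and 7.34. These 6 were picked for their widths, so their narrowing is a description. Their fold enrichment was higher after crotonate at Cep170 and lower at the other 5.

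Splitting was the next question. Of the 38688 shared control peaks, 3172 (8.2%, 95% interval 7.93 to 8.48) overlapped 2 or more crotonate peaks, and 1274 of the 40952 shared crotonate peaks (3.11%, 2.94 to 3.28) overlapped 2 or more control peaks. Splits were thus more frequent than joins. In H3K9cr the shares were 3.04% and 1.02%, in H3K4me3 0.449% and 0.866%, and in H3K27me3 11.9% and 12.1%. Of the split H3K27ac peaks 89.9% fell into 2 pieces, 264 into 3 and 55 into 4 or more. The split peaks had a median control width of 2508 bp, and their pieces summed to a median of 1898 bp. The largest gap inside a split peak had a median of 326.5 bp, and in 76.5% it was at most 500 bp. The control summit lay inside a piece in 94.3% of splits, so the gaps fell beside the summit. Peaks split in 8.80% of shared cases at promoters (8.30 to 9.32), in 8.89% at distal sites inside genes (8.45 to 9.34) and in 6.52% between genes (6.07 to 7.01). These shares were not matched for width. The median width of all control peaks was 1717 bp at promoters, 632 bp at distal sites inside genes and 673 bp between genes.

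The frequency of splits rose with control width, from 0.166% of shared peaks up to 500 bp and 7.17% of those of 1 to 2 kb to 28.04% of those of 3 to 5 kb and 54.9% of the 805 peaks over 5 kb. With peaks up to 1 kb apart merged in each list, 955 splits and 226 joins were left. The 2 control peaks with the most pieces, 6 each, were a distal peak of 12031 bp (chr12:53289466-53301496) whose nearest start is that of Npas3, a neural transcription factor gene, and 1 of 10669 bp (chr10:57821045-57831713) near Smpdl3a, a phosphodiesterase gene. Their pieces summed to 10256 and 8576 bp, and fold enrichment was 47.03 and 41.8 in control and 42.7 and 39.7 in the strongest piece. Peaks in 5 pieces lay near Slc25a26, a mitochondrial carrier gene (18122 bp, pieces summing to 17442 bp), Maml2, a gene of a Notch coactivator (17430 and 13574 bp), Chst3, a sulfotransferase gene (12709 and 10032 bp), and Zeb2, a transcription factor gene of neural development (10565 and 6788 bp). All 6 were distal and lay at percentiles of 96.4 to 99.7 of the control list by -log10 q, so very strong and broad domains were among those split. These 6 were picked for the most pieces, the widest first among ties, so their breadth is a description.

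Genes of neural stem and progenitor identity carried some of the broadest domains. Of 37 such genes measured, 36 had promoter H3K27ac in each library and none lost or gained it, beside losses at 2.97% of all genes that had it, a share that would amount to about 1 of 36. Their 23 one-to-one promoter peaks had a median width of 0.897 times control, with 21 narrower, beside 0.883 and 8683 of 10595 over all genes. The domain over Sox2 was 34951 bp wide in control (chr3:34637205-34672155, fold enrichment 46.5) and 3 crotonate peaks covered 96.8% of it, the widest of 31229 bp (enrichment 41.6). At Pax6, an eye and cortex transcription factor gene, 10987 bp were met by 2 peaks of 7919 and 3186 bp. Enrichment was 28.5 at the control summit and 27.998 in the stronger crotonate peak, that of 7919 bp. The crotonate peak of 3186 bp, which touched the promoter window, had enrichment 6.65. A second, weak control peak of 359 bp at the upstream Pax6 start had no partner. Gaps thus opened inside the Sox2 and Pax6 domains, which otherwise kept nearly all of their length.

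At other progenitor genes the domain stayed whole. Nes, the intermediate filament gene nestin, had 6783 bp in control and 5756 bp after crotonate, with fold enrichment 41.3 and 33.9. Vim, the vimentin gene, had 6437 and 5267 bp with 32.3 and 15.3, and Fabp7, a fatty acid binding protein of radial glia, 7269 and 6395 bp with 39.9 and 35.6. Hes5 had 5632 and 5291 bp with 26.5 and 27.5. The wider peak at Hes1, another Notch target, had 5950 and 6055 bp with 31.6 and 20.6, and Olig2, a transcription factor gene of the oligodendrocyte and ventral lineages, 12990 and 12882 bp with 44.5 and 22.4. Of these 6 peaks 5 were narrower after crotonate, and the one at Hes1 was wider. Enrichment was higher after crotonate at Hes5 and lower at the other 5. A second promoter peak at Hes1 had 2318 bp in control and 2207 bp after crotonate, with enrichment 28.5 and 20.8.

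**Figure D3:**
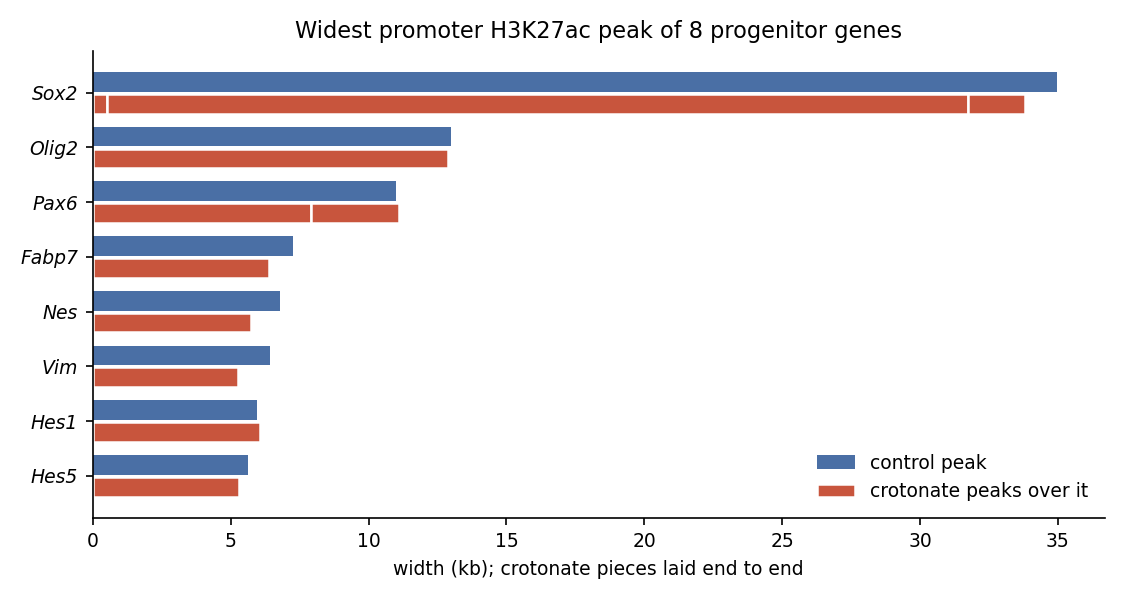
Width in kb (x axis) of the widest promoter H3K27ac peak at 8 progenitor genes in control, and of the crotonate peaks that overlap it, laid end to end with white gaps between pieces. Sox2 is in 3 pieces, Pax6 is in 2, and the other 6 are in 1.

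The second question was which peaks were in 1 list only. Of the control peaks 13092 (25.3%, 95% interval 24.9 to 25.7) had no partner and are called lost, and 17913 of the crotonate peaks (30.4%, 30.1 to 30.8) had none and are called gained. These were mostly weak: lost peaks had a median width of 351 bp and fold enrichment of 3.54, gained ones 333 bp and 3.53, and none of either stood in the top 10% of its list by -log10 q. A lost peak's nearest crotonate peak was a median of 3617 bp away, and 29.9% had one within 1 kb. A gained peak's nearest control peak was 7613 bp away, with 17.0% within 1 kb. With -log10 q of at least 5 asked of the counted list, 4181 of 36888 control peaks (11.3%) were lost and 3362 of 35429 crotonate peaks (9.49%) gained, so the excess of gains rested on weaker peaks. The crotonate list was also the longer one: with the same number of peaks taken from each list by -log10 q, 14709 (28.4%) were lost and 12913 (24.9%) gained, and the order turned.

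Promoters were lost and gained less often than distal sites. At promoters 638 of 12547 control peaks (5.08%, 4.71 to 5.48) were lost and 671 of 13036 crotonate peaks (5.15%, 4.77 to 5.54) gained. At distal sites 12454 of 39233 (31.7%, 31.3 to 32.2) and 17242 of 45829 (37.6%, 37.2 to 38.1) were. Distal peaks are weaker, so the shares were also taken in 4 equal classes of each list by -log10 q. In the weakest class 52.8% of promoter and 61.2% of distal control peaks were lost, in the next 27.5% and 35.5%, and in the third class 2.54% and 6.05%. For gains the shares were 51.2% and 69.2%, 29.6% and 45.0%, and 3.43% and 10.4%. In the strongest class none of 8603 promoter and none of 4342 distal control peaks was lost, which allows at most 0.0429% and 0.0849% (95% intervals), and 1 promoter and 1 distal crotonate peak were gained. The distal excess was thus smaller among peaks of like strength and was present in each of the 3 lower classes.

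**Figure D4:**
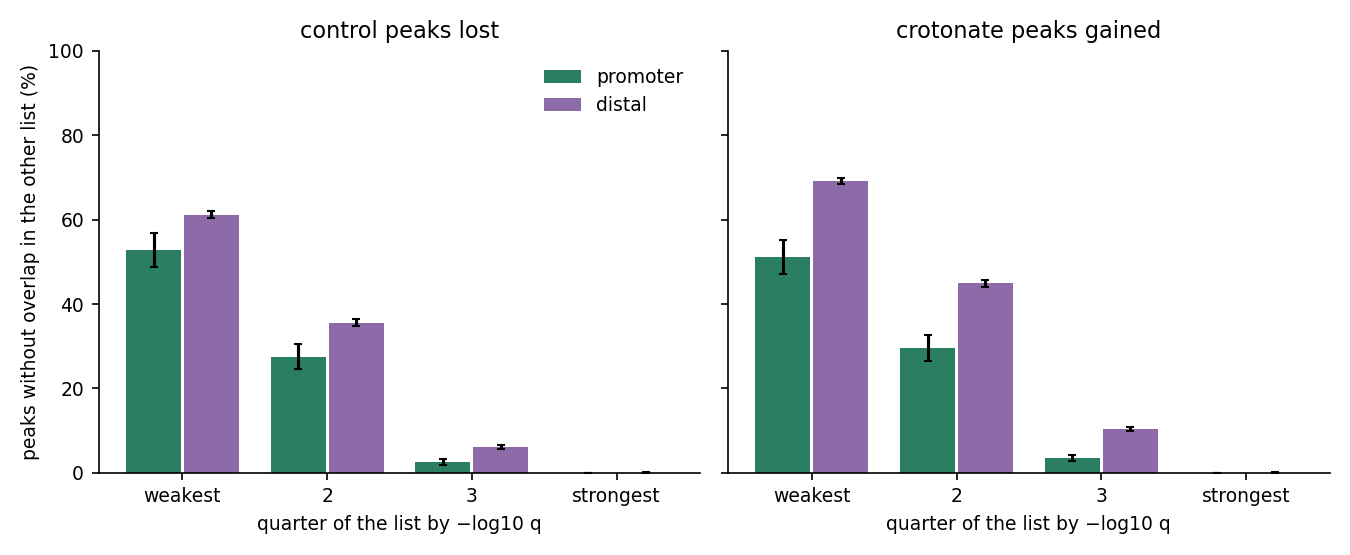
Percent of H3K27ac peaks without overlap in the other list (y axis) in 4 equal classes of the control list (left, lost) and of the crotonate list (right, gained) by -log10 q (x axis, weakest to strongest), for promoter and distal peaks, with 95% intervals. Distal bars are the taller in the 3 lower classes, and the strongest class is at or near 0.

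Distal gains lay inside genes more often than distal losses. Of the distal peaks in genes, 7563 of 23491 control peaks (32.2%, 31.6 to 32.8) were lost and 12899 of 30141 crotonate peaks (42.8%, 42.2 to 43.4) gained. Between genes 4891 of 15742 (31.1%, 30.3 to 31.8) were lost and 4343 of 15688 (27.7%, 26.98 to 28.4) gained. Gained distal peaks lay a median of 29455 bp from the nearest start and lost ones 39617 bp. Few of either carried other active marks: H3K9cr touched 12.6% of lost and 6.46% of gained distal peaks, against 52.1% and 46.2% of shared distal control and crotonate peaks, and H3K4me3 touched 2.34% and 1.48%.

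The strongest distal losses and gains, 8 of each, were named by rank in their list. The strongest loss was a peak of 239 bp near Clint1, a gene of vesicle transport (chr11:45926767-45927005, pileup 47, fold enrichment 11.7). A peak of 1675 bp near Prdx6, a peroxiredoxin gene (chr1:161224302-161225976), had pileup 46 and enrichment 11.4, and one of 1809 bp in a gene, 4580 bp from the start of Dixdc1, a Wnt pathway gene (chr9:50722607-50724415), pileup 43 and enrichment 10.7. The others lay nearest to Btn2a2, Cacna2d1 (a calcium channel subunit), Inpp4a, Nme1 and Robo3 (an axon guidance receptor). Of the 8, 6 touched a control H3K9cr peak. The strongest gains were 570 bp near Acte1 (chr7:143907653-143908222) and 460 bp near Rpl36, a ribosomal protein gene (chr17:56612032-56612491), each with pileup 33 and enrichment 9.24. Broader gains were 2493 bp near Cars, the cysteinyl-tRNA synthetase gene (chr7:143587209-143589701), and 2115 bp near Cd302, a lectin receptor gene (chr2:60267477-60269591), both with enrichment 8.70. The others were nearest to Zfp993, a zinc finger gene of a family of close copies, Fut9, Rfc3 and Arglu1. Of the 8 gains 2 touched a crotonate H3K9cr peak.

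Promoter changes were then counted by gene. Of 20665 protein-coding genes 12246 (59.3%) had promoter H3K27ac in control and 12270 (59.4%) after crotonate. It was lost at 364 of the genes that had it in control (2.97%) and gained at 388 of those that did not (4.61%). With equal numbers of peaks in the lists 422 were lost and 303 gained, so which of the 2 is the larger depends on the length of the lists. A gene loses or gains H3K27ac here when no peak of the other library touches its window, and at 338 of the 364 and 369 of the 388 the peaks there had no partner at all. H3K27me3, the Polycomb mark, lay in control at the promoters of 227 of the 364 genes that lost H3K27ac (62.4%), of 202 of the 388 that gained it (52.1%), of 2437 of the 11882 that kept it (20.5%) and of 19.9% of the 8031 without it in either library. H3K4me3 lay in control at 70.1% of the genes that lost H3K27ac, 51.3% of those that gained it, 97.1% of those that kept it and 10.1% of those without it. Genes that changed in either direction thus carried H3K27me3 more often than both genes that kept H3K27ac and genes without it, and their H3K4me3 share lay between the shares of these.

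The strongest lost promoter peaks were at Srp54c, Adamts20, Rnaset2a, Lrfn2, Rnaset2b, Mthfs, Disp2 and Gpr17. Lrfn2, Disp2 and Gpr17 have no listed start, so their peaks lay at an annotated end that need not be the start. The control peak at Srp54c was 232 bp wide with fold enrichment 9.24. Srp54c has close copies and so have Rnaset2a and Rnaset2b, so reads there may be shared among copies and these 3 are uncertain. At Adamts20 it was 510 bp wide with pileup 36 and enrichment 9.0 (chr15:94403864-94404373), and H3K9cr, H3K4me3 and H3K27me3 peaks were over it. At Lrfn2, a synaptic adhesion gene, it was 440 bp with 7.78 (chr17:48931802-48932241), at Mthfs 684 bp with 7.30 (chr9:89210366-89211049), and at Disp2, a gene of the Dispatched family of Hedgehog release proteins, 944 bp with 7.05 (chr2:118779262-118780205). Gpr17, a receptor of oligodendrocyte precursors, had 607 bp with 7.05. None of these had an overlapping crotonate peak, and the strongest stood at percentile 66.03 of the control list.

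Among the strongest gained promoter peaks Cfap77 stood apart, with a crotonate peak of 324 bp, pileup 45 and fold enrichment 12.5 (chr2:29054986-29055309, percentile 81.2 of the list). Spag6l followed with 679 bp, pileup 30 and 8.43 (chr16:16828927-16829605), and Emc9, a gene of the endoplasmic reticulum membrane complex, with 509 bp and 6.52 (chr14:55584811-55585319). The other 5 were Zfp750, an epidermal differentiation gene (1384 bp, 5.80), Mc5r, a melanocortin receptor gene (248 bp, 6.25), Icam1 (684 bp, 5.98), Cspg4b (481 bp, 5.93) and Zfp872 (496 bp, 5.71). Zfp750 and Mc5r have no listed start, so their peaks lay at an annotated end that need not be the start. Cspg4b and Zfp872 belong to groups of similar genes and are uncertain for the same reason as Srp54c. H3K9cr touched 7 of the 8 gained peaks and H3K4me3 the same 7, Zfp750 being the exception. H3K27me3 touched those at Cfap77, Emc9, Icam1, Cspg4b and Zfp872. Of all 671 gained promoter peaks H3K9cr touched 48.9%, H3K4me3 38.7% and H3K27me3 30.6%.

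Gene lists were described by the same counts. Over all genes, 2.97% of those with promoter H3K27ac in control lost it and 4.61% of those without it gained it. At such shares, lists of these sizes would hold few or no changes. No gene of acyl-CoA metabolism and fatty acid oxidation (39 of 45 with promoter H3K27ac in each library) or of histone acylation writers, erasers and readers (36 of 36) lost or gained it. The median width of their one-to-one promoter peaks was 0.882 and 0.894 times control, near the 0.883 of all genes. Of 34 immediate early and stress genes with it none changed, and their peaks were at 0.951. In the cell cycle and growth arrest list 1 of 43 lost it, Cdkn1c, a cyclin-dependent kinase inhibitor gene, from a peak of 240 bp with fold enrichment 3.41. In the cilium and flagellum list Cfap77 and Spag6l gained it, while Spef1 (298 bp, 3.93) and Ribc2 (320 bp, 3.89) lost it, so the list did not move one way.

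In the lineage and signalling lists the lost share was above the 2.97% of all genes, on small counts and mostly at weak peaks. Of all genes without promoter H3K27ac in control, 4.61% gained it. In the list of mesoderm, endoderm and other lineages 3 of the 9 genes with it in control lost it (33.3%): Lefty1, a Nodal antagonist gene (1020 bp, fold enrichment 4.38), Mesp1 (296 bp, 3.41) and Mesp2 (321 bp, 4.62), both mesoderm transcription factor genes, while Tbx3 gained it (565 bp, 4.89). Of 37 neuronal differentiation genes measured 13 had it in control. Of these 13, Tubb3, neuronal tubulin (962 bp, 4.86), and Nefl, a neurofilament gene (536 bp, 2.66), lost it. Of the genes without it Neurod6 (221 bp, 2.72) and Syt1, a synaptic vesicle gene (371 bp, 2.99), gained it. Among 17 astrocyte genes with it in control the only one without it after crotonate was Gfap, the astrocyte filament gene. Its control peak of 1783 bp (enrichment 5.84) had a crotonate partner of 862 bp (5.44) that no longer reached the promoter window. Of 19 oligodendrocyte genes measured 14 had it in control, of which Zfp488 (594 bp, 2.62) and Gpr17 lost it. Of the genes without it Pdgfra, the receptor of oligodendrocyte precursors, gained it (438 bp, 3.81). Of 48 signalling genes measured 31 had it in control. Of these 31, Bmp2 (538 bp, 3.41), Fgf15 (267 bp, 2.92) and Fgf18 (386 bp, 5.11) lost it. Among the 4 that gained it were Bmp3 (340 bp, 3.81), Dkk3, a secreted protein of the Dickkopf family (851 bp, 8.43), and Gdf7 (320 bp, 3.53). The Dkk3 peak overlapped a control peak of 824 bp with enrichment 7.78 that lay outside the window. Of 29 inflammatory and interferon genes measured 17 had it in control, and 1 of these, Cxcl10 (563 bp, 4.11), lost it. Of the genes without it the chemokine genes Cxcl1 (706 bp, 5.16) and Cxcl12 (243 bp, 3.81) and Icam1 gained it. Each of these counts is small, and none was tested.

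Distal peaks within 100 kb were assigned to their nearest gene. Around neural stem and progenitor genes 103 of 326 distal control peaks (31.6%) were lost and 76 of 337 distal crotonate peaks (22.6%) gained, beside 30.5% and 39.2% around all genes. Their 160 distal one-to-one pairs had a median width of 0.795 times control, beside 0.862. Around oligodendrocyte genes 26.7% were lost and 13.2% gained (10 of 76), and around histone acylation genes 36.4% and 44.9% (62 of 138). The lost distal share around progenitor genes was thus near that of all genes, and the gained share was lower. These shares and widths were not matched for the strength or width of the peaks.

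The last comparison was of ranks. The control and crotonate peaks of each one-to-one pair were ranked by -log10 q among the 33154 pairs, from 0 (weakest) to 100, so that a difference in depth that acts on all peaks alike is not seen. Spearman's coefficient between the 2 lists was 0.881 over all pairs, 0.930 at promoters and 0.751 at distal sites, as a description across peaks of 1 library each. The rank rose by over 20 percentile points in 2564 pairs (7.73%) and fell by as much in 2478 (7.47%). Of the promoter pairs 229 rose (2.16%) and 272 fell (2.57%), and of the distal pairs 2335 rose (10.4%) and 2206 fell (9.78%). Over all pairs, ranks of distal peaks thus moved more, in both directions. Pairs were also put in 4 equal classes by the mean of both ranks. In the weakest 12.7% rose and 13.9% fell at promoters, beside 12.3% and 11.5% at distal sites, so here promoters moved at least as often. In the second class 11.2% rose and 15.3% fell at promoters and 15.7% and 15.4% at distal sites, and in the third 1.56% and 1.52%, and 4.08% and 3.39%. In the strongest class the shares were 0.0959% and 0.0480% at promoters and 0.737% and 0.491% at distal sites.

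**Figure D5:**
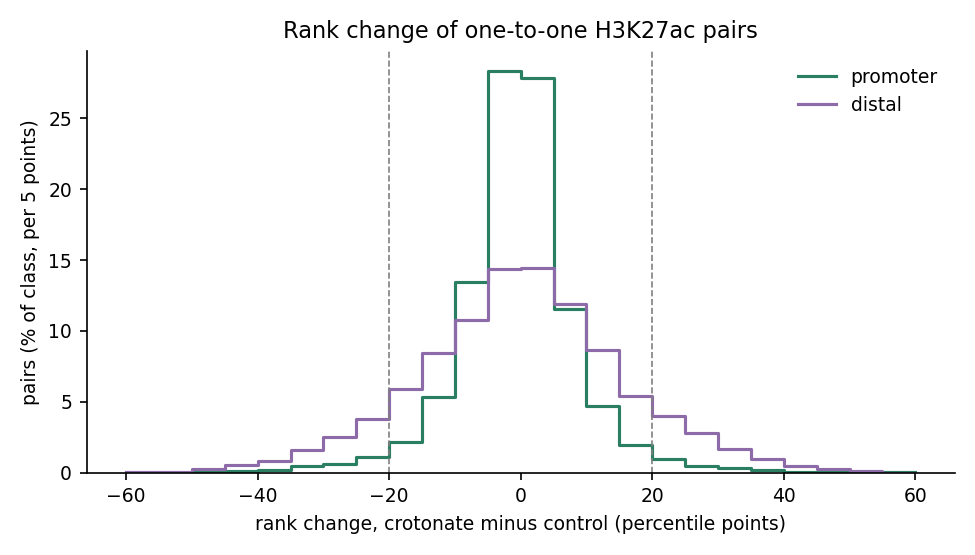
Percent of one-to-one H3K27ac pairs (y axis, per 5 points) by rank change from control to crotonate in percentile points (x axis), for 10604 promoter and 22550 distal pairs, with dashed lines at 20 points either side. The promoter line is the narrower. Beyond the lines lie 2.16% above and 2.57% below for promoters, and 10.4% and 9.78% for distal pairs.

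Distal pairs differed by whether H3K9cr was there in control. The 11762 with a control H3K9cr peak had a median rank change of -1.33 points and a median width of 0.819 times control (0.814 to 0.824), and the 10788 without had 2.66 points and 0.907 times (0.896 to 0.917). The control ranks of these groups differed, with medians of 55.02 and 19.98. Distal pairs with control H3K27me3, 1213 in number, had -2.42 points, and the 21337 without it 0.38. The part of these differences in strength was not tested.

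The peaks of the promoter class that rose most in rank were at Adgrb1, Zc3h3, Gdf5, Slc7a4, Got1l1 and Rimbp2. Of these only Rimbp2 has a listed start. At the other 5 the peak touched a window at an annotated end of the gene, which need not be the start. Whether these 5 lay at promoters is thus not known. At Adgrb1, an adhesion receptor gene of brain, the pileup was 13 in control and 34 after crotonate, fold enrichment 3.10 and 9.51, and the rank 4.99 and 63.4. At Zc3h3, a zinc finger gene, the enrichment was 2.93 and 9.79. At Gdf5, a bone morphogenetic protein family ligand, it was 2.92 and 8.15, and the peak was 335 and 899 bp wide. Slc7a4, a transporter gene, had 3.00 and 7.34, Got1l1, an aminotransferase gene, 3.65 and 8.70, and Rimbp2, a gene of the presynaptic active zone, 3.41 and 7.88. The crotonate peak was wider at 5 of the 6, with Got1l1 the exception (699 and 648 bp).

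The promoter peaks that fell most were at Apc2, Sorbs2, H3f3b, Lypd1, the shared window of Ccdc92 and Zfp664, and Ankrd54. At Apc2, a neuronal relative of the Wnt regulator APC (chr10:80298430-80299773), the pileup was 69 in control and 13 after crotonate, fold enrichment 17.03 and 3.81, width 1344 and 289 bp, and rank 73.1 and 13.7. Only 1 of 4 annotated Apc2 starts has a sequence fully under this control peak, and another Apc2 start stayed fully covered in both libraries. At H3f3b, which encodes histone variant H3.3, the peak upstream of the start (chr11:116024827-116025760) had enrichment 11.9 and 3.81 and was 934 and 509 bp wide. Sorbs2, an actin adaptor gene, had 10.9 and 3.53, Lypd1 7.78 and 2.70, and the window of Ccdc92 and Zfp664 9.0 and 3.53, as had Ankrd54. All 6 were narrower after crotonate.

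At distal sites 1 of the largest rises was nearest to Kdm2b, a CpG-binding histone demethylase gene (chr5:122967875-122968306), with pileup 19 and 35, fold enrichment 2.60 and 9.79 and width 432 and 1158 bp. Rises near Mrvi1, Ptpn21, Trim56 and St3gal3 had enrichment between 2.74 and 3.04 in control and between 7.88 and 9.79 after crotonate. The largest falls were nearest to Mycl, a Myc family gene (chr4:122998781-123000291), with pileup 45 and 17 and enrichment 11.2 and 2.67, and to Ncam1 as described above. Falls near H4c8, a histone gene, Bmpr1a, a bone morphogenetic protein receptor gene, Mef2c, a neuronal and muscle transcription factor gene, and Ccdc39, a gene of ciliary assembly, went from 11.2, 9.0, 12.4 and 9.0 to 3.26, 2.31, 3.43 and 2.99. These pairs were picked as extremes of the rank change, so each is a description of 2 libraries.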

How the data were processed

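The groups were taken from the labels, which name 10 libraries. Lists of the 8 immunoprecipitated ones were used, and the inputs were not used here. The submitters' processing notes name Bowtie2 2.4.1, MACS2 2.2.7.1 and GRCm38. The sources used here do not give the calling settings, how duplicates were handled or whether the inputs served as background. Each list holds the calls of 1 library, in the MACS2 layout per the file headers. Pileup is the deposited coverage signal at the summit, and fold enrichment the deposited ratio of it to local background. The authors' -log10 q-value and -log10 p-value describe the summit, and both lists end near a q-value of 0.05. All are the authors' values and were used to describe, rank or match peaks. Positions count from 1.

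From these, overlaps, widths and ranks were computed with Python 3.11.15, pandas 2.3.3 and scipy 1.17.1, for chromosomes 1 to 19; 1142 control and 1003 crotonate peaks on X and Y were left out. Read totals are not known. As a stand-in for depth, the pileup plus 1 was divided by the fold enrichment, 1 was subtracted, and the lowest value of a list was taken. Shares have exact (Clopper-Pearson) and medians order-statistic 95% intervals. They cover counting error only, and without molecular identifiers reads need not be independent molecules.

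Genes were 20665 protein-coding genes of RefSeq's GRCm38.p6 table. For 16457 the start comes from the promoter sequence table, and for the other 4208, which have none there, both annotated ends were used. Distal peaks were assigned to the nearest start within 100 kb. Named were the strongest lost and gained peaks, the largest rank changes with summits within 500 bp, the peaks split most, those over 3 kb narrowed most, changed list members (up to 5 per direction) and 8 progenitor genes. Some genes that these rules name are not reported here. The members, lists and rules were chosen with earlier results of these data known. The matching was tested on simulated lists. With 1 library per group there was no test between treatments. Alternatives covered the overlap, the strength threshold, list length, merging, the promoter window, the ranking and the genes used.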

Additional observations from a re-analysis of the deposited data

How the results depend on the processing

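Of the 68 comparisons of a result with an alternative, 35 stayed within the interval of the reported value or within 1.5 times the reported count, 33 moved and none changed sign. Set against each other, losses outnumbered gains with equal numbers of peaks (14709 and 12913 peaks, 422 and 303 genes). The alternatives that count only genes with an annotated start were chosen after seeing the data.

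Losses and gains numbered 23316 and 30401 with sharing defined as an overlap of 50% of each peak, 4181 and 3362 with -log10 q of at least 5 in the counted list, and 8410 and 5729 with it in both lists. With it in both lists the median width ratio was 0.857, 77.7% of pairs were narrower, and 1637 peaks split and 544 joined. The width ratio was 0.892 with fold enrichment within 10% and 0.958 with higher enrichment after crotonate, and 69.9% and 55.8% were narrower. With summits within 200 bp 73.2% were narrower. Merging peaks within 1 kb left 955 splits and 226 joins, and an overlap of 50% of the smaller peak left 692 joins.

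The lost share at distal sites exceeded that at promoters by 26.7 percentage points, and by 27.5 with a window of 500 bp, 24.5 with 2 kb, 29.9 with H3K4me3 in place of the window, and 27.5 with annotated starts only. For gains the difference was 32.5, and 33.5, 30.6, 37.1 and 33.5 in that order, and 20.3 with -log10 q of at least 5 in both lists. The last setting moved the log2 width ratio of distal against promoter pairs to -0.0888. The distal minus promoter rank change was 0.43 points, 0.88 by H3K4me3 and 2.22 by percentile of the whole list. Ranks that moved by over 20 points made up 15.2%, and 17.4% by fold enrichment, 14.03% by pileup and 18.2% by percentile of the whole list.

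No paired analysis was possible because each group is 1 library. Read depth is unknown, and both the presence of a weak peak and the place of its edges depend on the calling limit.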
